A study of Rattus norvegicus with 2 samples.

Results

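The thin filament of striated muscle was examined in fetal rat skin through the troponin genes and the sarcomeric actin genes. Members were the array rows, other than control spots, named Tnnt1, Tnnt2, Tnnt3, Tnni1, Tnni2, Tnni3, Tnnc1, Tnnc2, Acta1 or Actc1. Of these 10 names, 9 were found, on 10 of 41012 probes, and all 9 were among the 14781 genes detected, out of 18334 genes with a name. Tnnc1 had no row under its own name. A single probe described by the locus number that RefSeq gives Tnnc1 is therefore reported beside the members and enters none of their counts or medians unless stated.

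RNA came from Sprague Dawley fetal rat skin at day 16.5, called E16, and day 18.5, called E19. The labels list no treatment and give no sex or litter. The E16 RNA was a pool of 4 samples and the E19 RNA a pool of 3. Both pools were hybridised to 2 arrays, with E19 in Cy5 and E16 in Cy3 on 1 array and the dyes exchanged on the other, so each stage has 1 replicate and no test between stages is possible. Values are log2 ratios of E19 over E16, given for each array or as the mean ± the SD of the 2 arrays. That SD is technical and holds no variation between animals. The word called is kept for genes that differed 2-fold or more in the same direction on both arrays.

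Troponin is the calcium switch of striated muscle and keeps a fibre relaxed until calcium arrives. Troponin C binds the calcium, troponin I blocks the actin filament, and troponin T ties the complex to tropomyosin along actin. Troponins T and I have separate slow, cardiac and fast genes, while slow and cardiac muscle share a troponin C gene, and muscle made before birth carries cardiac-type isoforms that it later loses. Rodent skin lies on a thin sheet of skeletal muscle, the panniculus carnosus.

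The slow and cardiac-type members were all lower in E19 than in E16 on both arrays, and the fast members were not. Of 9 members, 3 were called higher in E16 (Tnnt1, Tnni3 and Tnnt2), against 3.75% of all detected genes. None of the 9 was called higher in E19, against 4.15% of all detected genes. Over all genes 614 were higher in E19 and 555 in E16, a split that turned to 390 and 809 when ratios were centred on spike-in RNAs, which left the members' counts at 3 in E16 and 0 in E19. The 5 slow or cardiac-type members had a median of -1.11 and the 4 fast or adult skeletal-type members a median of 0.46, beside 0.02 over all detected genes. All 5 slow or cardiac-type members lay below 0 on both arrays, as did 36.6% of all detected genes, of which 47.5% had a mean below 0. Of the 4 fast members, 3 lay above 0 on both arrays, as did 42% of all detected genes.

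**Figure D1:**
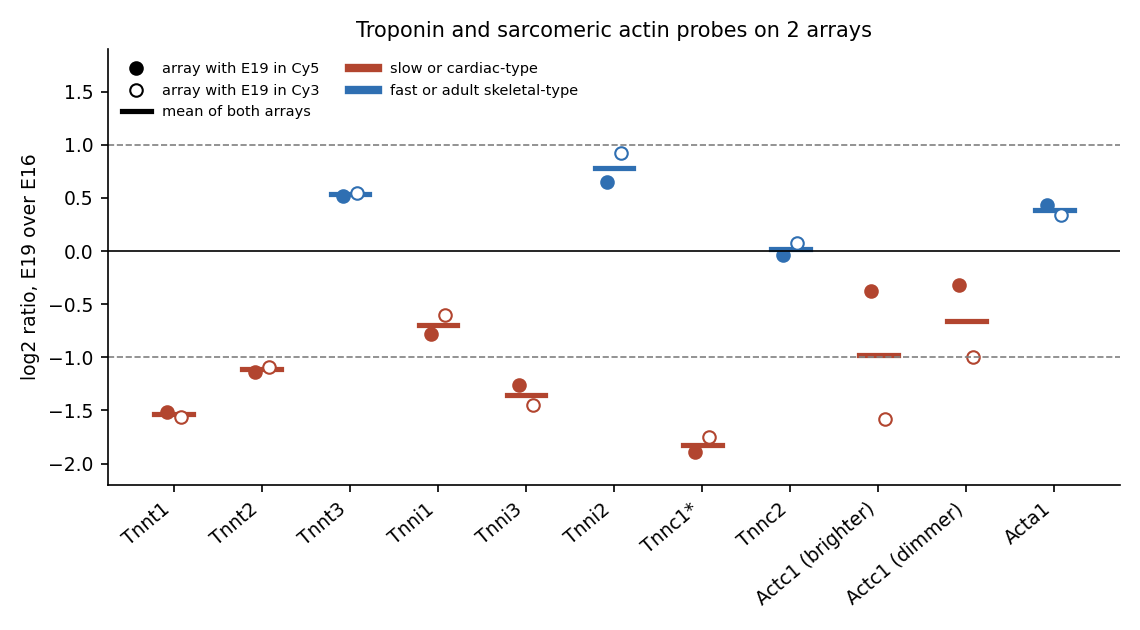
Log2 ratio of E19 over E16 (y axis) for each probe of the members and for the Tnnc1 probe outside the name rule (asterisk). Filled and open points are the 2 arrays, bars are their means, and dashed lines mark 2-fold; the slow or cardiac-type probes lie below 0 and the fast probes at or above it, with the widest gap between arrays for Actc1 (-0.38 and -1.58).

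Promoter sequence is shown for 4 members: the actins, whose ratios had opposite signs, and the members with the lowest and highest ratio, Tnnt1 and Tnni2. Each stretch runs 5′ to 3′ from 200 bases before to 20 bases after the annotated start, from RefSeq on GRCr8. Positions are Acta1 at chr19:68784175-68784394 (minus strand), Actc1 at chr3:121271808-121272027 (minus strand), Tnnt1 at chr1:78348835-78349054 (plus strand) and Tnni2 at chr1:207024290-207024509 (plus strand). Capitals mark a CArG box, the site of serum response factor, an M-CAT core (CATTCC) or an E-box (CANNTG), the site of myogenic regulators, each searched on both strands. No marked motifs overlapped.
Acta1: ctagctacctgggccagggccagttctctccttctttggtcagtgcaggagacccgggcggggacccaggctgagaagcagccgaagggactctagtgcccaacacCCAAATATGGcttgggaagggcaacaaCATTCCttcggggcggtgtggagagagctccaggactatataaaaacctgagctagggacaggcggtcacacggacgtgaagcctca
Actc1: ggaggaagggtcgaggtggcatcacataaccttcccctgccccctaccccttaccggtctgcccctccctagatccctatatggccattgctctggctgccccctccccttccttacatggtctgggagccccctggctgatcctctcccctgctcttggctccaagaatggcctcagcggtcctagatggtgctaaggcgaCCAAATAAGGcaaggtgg
Tnnt1: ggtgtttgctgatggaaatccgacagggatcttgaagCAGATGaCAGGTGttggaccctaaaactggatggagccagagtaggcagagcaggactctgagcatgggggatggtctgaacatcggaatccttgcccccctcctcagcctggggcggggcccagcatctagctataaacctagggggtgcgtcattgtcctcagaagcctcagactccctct
Tnni2: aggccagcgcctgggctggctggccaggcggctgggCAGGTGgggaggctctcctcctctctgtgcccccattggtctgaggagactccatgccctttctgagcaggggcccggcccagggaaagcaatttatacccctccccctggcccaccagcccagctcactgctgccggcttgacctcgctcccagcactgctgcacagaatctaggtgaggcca

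Both actin windows held a CArG box, which 1.64% of 33469 RefSeq windows of 300 bases hold. In Acta1 it began 94 bases before the annotated start and in Actc1 at base 3 after it. Acta1 also held an M-CAT core, found in 14.2% of windows. Tnnt1 and Tnni2 were marked by E-boxes, which 72.1% of windows hold. The MEF2 site, found in 3.29% of windows, was not among the letters of any member window, of which 8 of the 10 names had at least 1. A match of letters is not a measured site, and whether any of these motifs bears on the ratios was not tested.

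Troponin T showed the largest separation between a slow and a fast gene. On the array with E19 in Cy5, the normalised log2 intensity of Tnnt1, the slow skeletal troponin T, was 15.34 in E16 and 13.83 in E19. On the array with E19 in Cy3 it was 14.98 and 13.41. E16 was the higher pool on both arrays, and the ratio was -1.54 ± 0.04, or 2.90-fold higher in E16. Including Tnnt1, 295 of the 14781 detected genes had a ratio this low or lower.

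Tnnt2, the cardiac troponin T that fetal skeletal muscle also makes, read 15.64 in E16 and 14.50 in E19 with E19 in Cy5. With the dyes exchanged it read 15.56 and 14.47. E16 was again the higher pool on both arrays, and the ratio was -1.11 ± 0.03, or 2.17-fold higher in E16. Tnnt3, the fast skeletal troponin T, went the other way, from 13.76 to 14.28 on the first array and from 14.00 to 14.55 on the second. E19 was thus its higher pool on both arrays. Its ratio of 0.54 ± 0.02, or 1.45-fold higher in E19, did not pass the 2-fold rule.

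Troponin I divided in the same way. Tnni1, the slow skeletal troponin I, read 14.77 in E16 and 13.98 in E19 with E19 in Cy5, and 14.53 and 13.93 with E19 in Cy3. E16 was the higher pool on both arrays, but the ratio of -0.69 ± 0.12 stayed short of 2-fold. Tnni3, the cardiac troponin I, read 9.35 and 8.09 on the first array and 9.42 and 7.97 on the second. Its ratio was -1.35 ± 0.14, or 2.56-fold higher in E16. Its probe was the dimmest of the members and exceeded 30.1% of detected genes in brightness, where the other members exceeded at least 89.8%. Without the offset added in background correction its ratio was -1.59, and the array software's own processed signals gave -1.64.

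Tnni2, the fast skeletal troponin I, had the highest ratio of the members. It read 15.18 in E16 and 15.83 in E19 with E19 in Cy5, and 15.02 and 15.94 with E19 in Cy3. Its ratio was 0.79 ± 0.20, or 1.72-fold higher in E19, with 92.5% of detected genes at or below it. The arrays gave 0.65 and 0.93, so it passed a 1.5-fold limit on both arrays and the 2-fold rule on neither.

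Troponin C was the exception among the fast members. Tnnc2, the fast skeletal troponin C, read 14.62 in E16 and 14.59 in E19 on the first array and 14.56 and 14.63 on the second. The arrays thus lay on opposite sides of 0 (-0.03 and 0.08), and the ratio of 0.02 ± 0.08 was smaller than its SD. Its sign changed with the scaling, to -0.20 when ratios were centred on spike-in RNAs, which lowers every ratio by 0.22. The probe for the locus of Tnnc1, the troponin C shared by slow and cardiac muscle, read 15.58 in E16 and 13.69 in E19 on the first array and 15.30 and 13.55 on the second. Its ratio was -1.82 ± 0.10, or 3.54-fold higher in E16, which would make it the lowest of the set. With it counted, 4 of 10 members passed the rule towards E16 and the slow or cardiac-type median was -1.23.

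**Figure D2:**
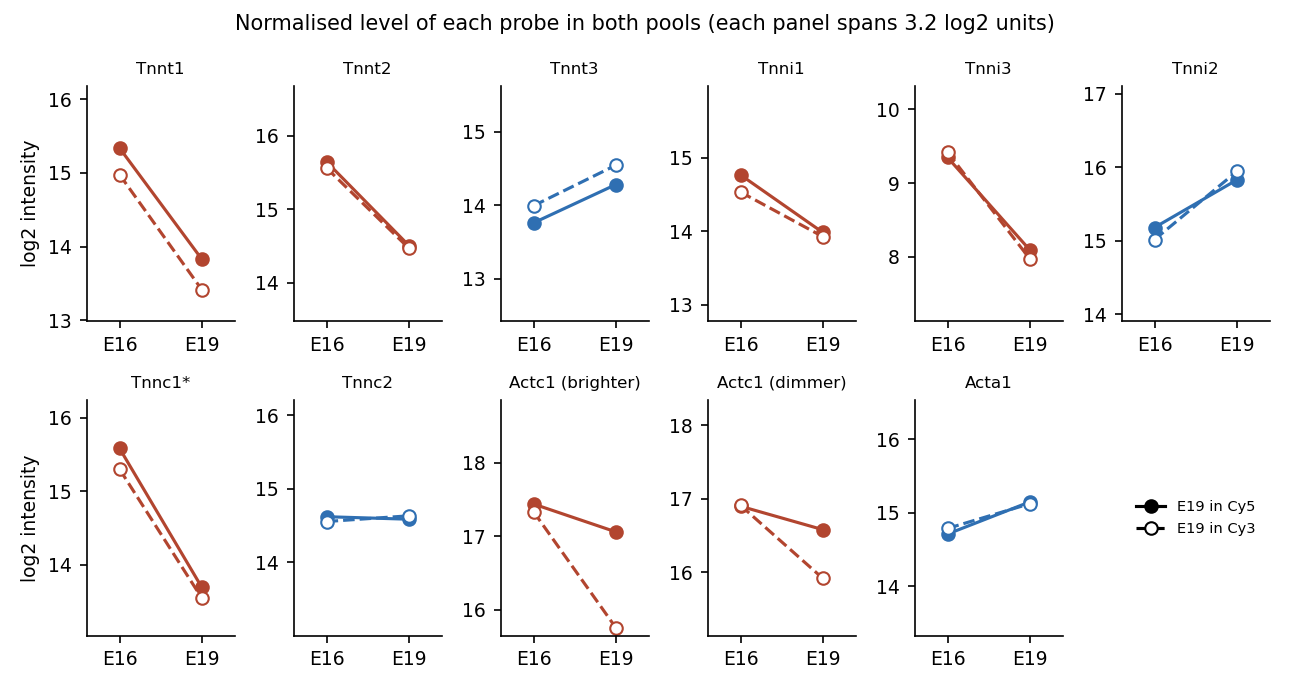
Normalised log2 intensity (y axis, with the same span in every panel) of each probe in the E16 and E19 pools, with a solid line for the array with E19 in Cy5 and a dashed line for the array with E19 in Cy3. Slow or cardiac-type probes slope down and Tnni2, Tnnt3 and Acta1 slope up on both arrays, while Tnnc2 is level; heights are not comparable between probes.

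The 2 arrays differed most for the sarcomeric actin Actc1. Actc1 encodes cardiac alpha actin, which is also the main sarcomeric actin of early skeletal muscle, and it had 2 probes. The brighter probe read 17.44 in E16 and 17.06 in E19 with E19 in Cy5, but 17.34 and 15.76 with E19 in Cy3. E16 was the higher pool on both arrays, yet the ratios were -0.38 and -1.58, with a mean of -0.98 ± 0.85. The dimmer probe gave -0.32 and -0.99, with a mean of -0.66 ± 0.48. Neither probe passed the rule.

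Acta1, the alpha actin of adult skeletal muscle, read 14.71 in E16 and 15.15 in E19 on the first array and 14.79 and 15.12 on the second. E19 was the higher pool on both, with a ratio of 0.39 ± 0.07. Among the brightest 1% of detected genes, which include Actc1, the median SD between arrays was 0.72, against 0.11 over all detected genes. The members other than Actc1 had SDs of 0.02 to 0.20. No member probe was saturated, and every member probe was well above background in both pools on both arrays. Actin coding sequences are nearly identical between genes, and whether these probes share signal with another actin was not tested.

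The shift between isoforms of 1 subunit was read within each array as the fast ratio minus the slow ratio, which is little affected by how an array is scaled. For troponin T, the Tnnt3 ratio exceeded the Tnnt1 ratio by 2.03 and 2.12 on the 2 arrays (mean 2.07 ± 0.06), a 4.21-fold shift towards the fast gene. For troponin I, the Tnni2 ratio exceeded the Tnni1 ratio by 1.43 and 1.53 (1.48 ± 0.07). Troponin C gave 1.86 and 1.83 (1.84 ± 0.02) with the Tnnc1 probe. In troponins T and I the slow gene lay below 0 and the fast gene above it, whereas in troponin C the fast gene lay at 0.02.

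The cardiac genes were read against the fast ones in the same way. Tnnt3 exceeded Tnnt2 by 1.65 ± 0.01, and Tnni2 exceeded Tnni3 by 2.14 ± 0.33. For actin, Acta1 exceeded Actc1 by 0.82 on one array and 1.91 on the other, so the size of that shift is known poorly (1.36 ± 0.78). A shift of this kind shows unequal change between both genes and does not show which cells carried it.

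**Figure D3:**
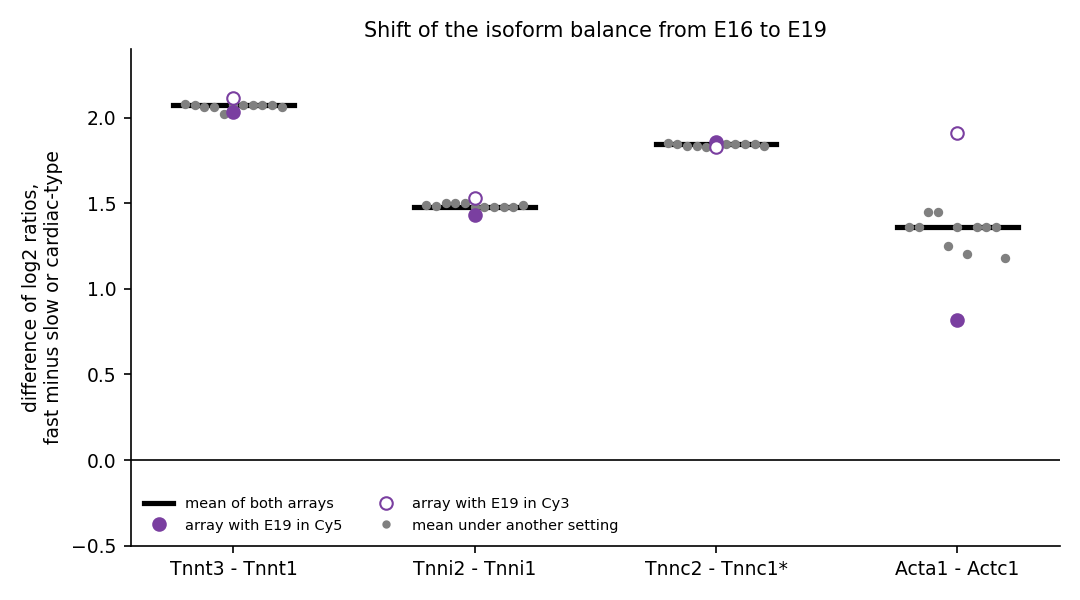
Difference between the log2 ratio of the fast gene and that of the slow or cardiac-type gene (y axis) for each subunit, on the array with E19 in Cy5 (filled), on the array with E19 in Cy3 (open) and as their mean (bar). Grey points are the mean under other processing settings; they stay within 2.02 to 2.08 for troponin T and spread from 1.18 to 1.45 for actin.

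The sign of the mean ratio of the slow, cardiac and fast members held under other processing, with Tnnc2 as the exception already given. Median centring of each array in place of loess pulled the arrays apart (-0.85 and -2.22 for Tnnt1, for example). With it, 4 of the 9 members had opposite signs on the 2 arrays: Actc1, Tnnt3, Tnnc2 and Acta1. Of the fast members only Tnni2 then stayed above 0 on both arrays (1.46 and 0.12), and only Tnni3 passed the rule. In the authors' deposited table, which combines the same arrays, E16 was higher by 2.95-fold for Tnnt1, 3.11-fold for Tnni3 and 2.23-fold for Tnnt2. The same authors' deposited table put Tnni2 at 1.71-fold and Tnnt3 at 1.41-fold higher in E19.

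Troponin I and troponin T genes lie in pairs in the genome. The pairs are Tnni3 with Tnnt1 and Tnni2 with Tnnt3 on chromosome 1, and Tnni1 with Tnnt2 on chromosome 13. In the array files the probes of a pair lay 12.5 kb, 69.3 kb and 45.0 kb apart, in that order, on an assembly the files do not name. Within each pair both ratios had the same sign, at -1.35 and -1.54, at 0.79 and 0.54, and at -0.69 and -1.11. Both genes of a pair belong to the same class, slow or cardiac-type or fast. The shared sign therefore repeats the split between classes and is not a separate result.

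Coding genes beside, between or overlapping the pairs in RefSeq were looked up after the members' values had been seen, and 11 of them were detected. On both arrays 4 of the 11 had the sign of the pair, 6 had the opposite sign, and for 1 the arrays differed in sign, so the neighbours showed no single pattern.

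Those with the sign of the pair were Syt5 (-0.58 ± 0.21) at Tnni3 and Tnnt1, Ctsd (0.56 ± 0.49) and Mrpl23 (0.32 ± 0.01) at Tnni2 and Tnnt3, and Csrp1 (-0.32 ± 0.18) at Tnni1 and Tnnt2. Those with the opposite sign included Lad1, which encodes the basement membrane protein ladinin and lies between Tnni1 and Tnnt2 (1.11 ± 0.31), the desmosomal gene Pkp1 beside Tnnt2 (1.58 ± 0.05) and Eps8l1 near Tnnt1 (1.33 ± 0.13). The others were Phlda3 (0.56 ± 0.12), the leukocyte gene Lsp1 between Tnni2 and Tnnt3 (-0.27 ± 0.36) and the growth factor gene Igf2 (-1.30 ± 0.91). Syt8 was at -0.03 ± 0.18. Only Pkp1 and Eps8l1 of the 11 were called, both higher in E19.

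**Figure D4:**
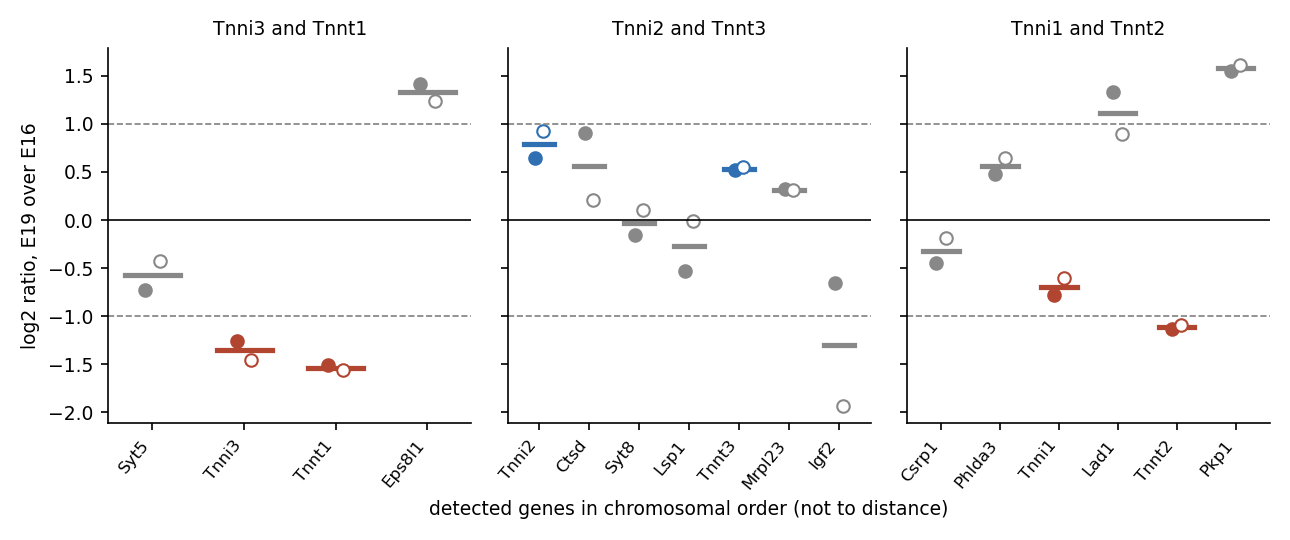
Log2 ratio of E19 over E16 (y axis) for detected coding genes in chromosomal order at the 3 troponin gene pairs (x axis, distances not drawn). Members are in colour, neighbours in grey, filled and open points are the 2 arrays and bars their means; Lad1 (1.11) stands above 0 between Tnni1 (-0.69) and Tnnt2 (-1.11).

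Other slow and fast muscle genes were read for the same split. Among 11 detected slow or cardiac-type isoforms of other sarcomere and calcium genes, 2 were called higher in E16, none was called higher in E19, and the median was -0.31. Myh7, the slow and ventricular myosin heavy chain, was at -1.78 ± 0.13, and Myh6, the atrial one, at -1.64 ± 0.09. These 2 genes are nearly identical, and shared probe signal was not tested. Of 7 detected fast isoforms, 3 were called higher in E19 and none in E16, with a median of 0.19. That median was -0.03 when centred on the spike-in RNAs, 0.63 with the array software's processed signals and 0.83 over genes well above background in both pools. The Z-disc gene Myoz1 was at 2.48 ± 0.08, the fast myosin-binding protein gene Mybpc2 at 1.87 ± 0.17, and the calcium buffer gene Pvalb at 1.47 ± 0.16. Actn3, the fast-fibre alpha-actinin gene, went against them, at -0.89 and -0.50 on the 2 arrays.

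The direct partners of troponin and actin were not called. Of 7 detected thin filament genes, including the tropomyosins, nebulin and tropomodulins, none passed the rule in either direction, and the median was -0.16, with a range from -0.67 to 0.47. The remaining actins were Actb (-0.04 ± 0.93) and Actg1 (-0.09 ± 1.08) of the cytoskeleton and Actg2 of smooth muscle (0.22 ± 0.69). These 3 lay above 0 with E19 in Cy5 and below 0 with E19 in Cy3, so no direction can be read from them. No probe carried the name Acta2. Myh3, the embryonic myosin, was at -1.40 ± 0.98 and did not pass the rule, while Myh8, the perinatal myosin, passed it towards E19 (1.80 ± 0.14).

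Genes of muscle fibres in general were read beside the isoforms. Of 13 detected markers of skeletal muscle fibres, 9 lay below 0 on both arrays, the median was -0.50, and only Ckm, the muscle creatine kinase, passed the rule, towards E19 (1.17 ± 0.07). Des, which encodes the muscle filament desmin, was at 0.03 ± 0.28. Among 7 detected myogenic regulators, Myod1 (-2.48 ± 0.02), Myf5 (-1.65 ± 0.25) and Myog (-1.61 ± 0.12) were called higher in E16 and the median was -0.91. Of 7 genes that couple excitation to calcium release, Cacna1s, the voltage sensor, was called higher in E16 (-1.22 ± 0.19) and the median was -0.68. In pooled tissue, fewer muscle cells and less RNA per cell cannot be told apart.

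**Figure D5:**
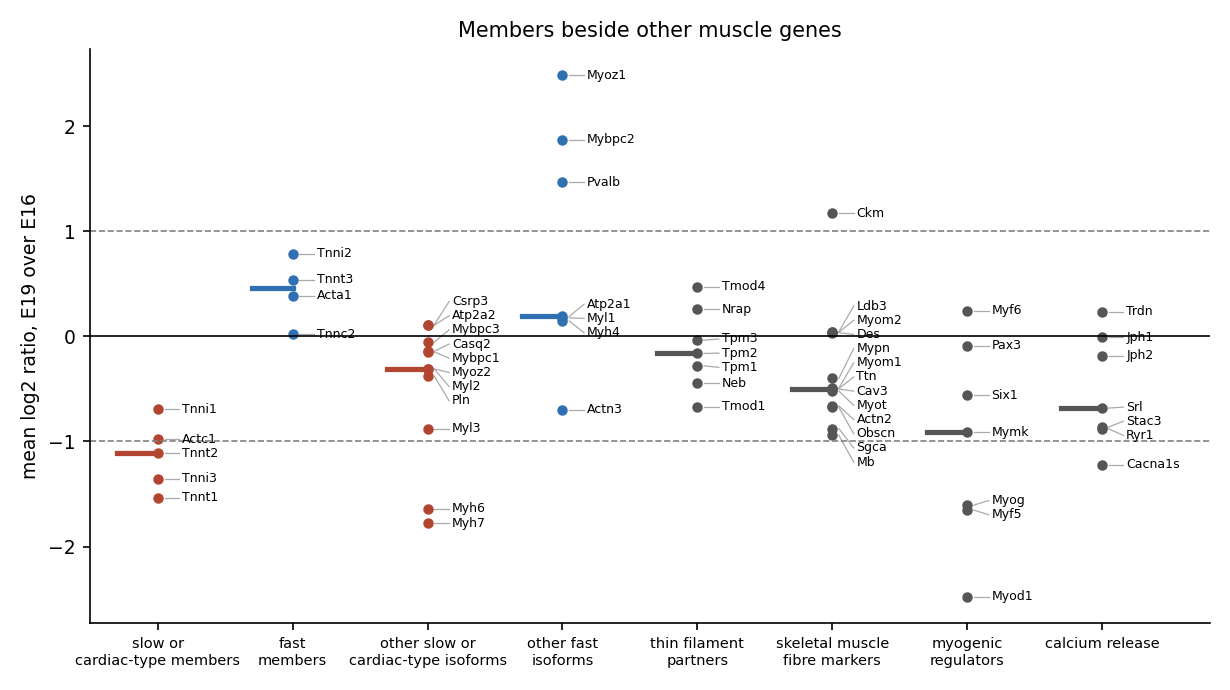
Mean log2 ratio of E19 over E16 (y axis) for the members, without the Tnnc1 probe and with the brighter Actc1 probe, beside other muscle gene groups (x axis). Points are genes, short bars are group medians (-1.11 for slow or cardiac-type members, 0.46 for fast members, -0.50 for fibre markers) and dashed lines mark 2-fold.

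Markers of other cell types were set beside these values. Heart muscle was checked because 3 members are named for it. Its regulators Nkx2-5, Gata4 and Tbx20 and its hormone gene Nppa were not detected, that is, not well above background on both arrays for either pool. Of the 5 cardiac markers detected, Myh6 was called higher in E16 and Nppb, a natriuretic peptide gene, higher in E19 (2.20 ± 0.03). Myl7 (0.14 ± 0.06) and Hand2 (0.10 ± 0.01) did not pass the rule, and Hand2 was well above background in E16 on only 1 array. Ryr2, the cardiac calcium release channel, was not well above background in E19, so only a bound can be given: E16 exceeded E19 by at least 1.84-fold, with E19 set per array at the higher of its own signal and the lowest signal well above background.

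Krt5 and Krt14, keratins of the basal epidermis that mark the labelled tissue, were well above background in both pools. Krt5 was at 1.11 ± 0.02, and Krt14 at 3.27 and 0.73 on the 2 arrays. The epidermis markers had a median of 1.46, with Krt5 and Krt10, a keratin of the upper epidermis (1.87 ± 1.04), as the 2 of 6 called higher in E19. Cartilage markers had a median of -1.90 with 5 of 7 called higher in E16, led by Cnmd (-4.16 ± 0.19), Col2a1 (-2.69 ± 0.24) and Col9a2 (-2.41 ± 0.20). Neuron markers had a median of -3.04 with 6 of 7 called higher in E16, led by Stmn2 (-4.14 ± 0.35), Ina (-3.59 ± 0.13) and Snap25 (-3.22 ± 0.03). Smooth muscle markers had a median of 0.18, or -0.04 when centred on the spike-in RNAs. Of 5 detected, 3 lay above 0 on both arrays and 2 below. Only Tagln was called, higher in E16 (-1.54 ± 0.30). The part of these cell types in the members' ratios was not tested.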

How the data were processed

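Per the file headers, spot and background intensity were measured with Agilent Feature Extraction 9.5.1.1. The program also wrote processed intensities and a log10 ratio of Cy5 over Cy3 into the deposited files. The authors' deposited table holds a log10 ratio and p-value per sequence, merging the arrays; how they were merged is not given in the sources used here. The table does not state its direction. Across detected probes it correlated at r = 0.90 with Cy5 over Cy3 where E19 was in Cy5, and at r = -0.89 where E16 was. Positive values were therefore taken as higher in E19. Its p-values are not reported.

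From the uncorrected intensities, normexp background correction (offset 50) and then a loess fit per array, which gave control spots no weight, yielded log2 ratios in limma 3.58.1 (R 4.3.3). Spots flagged as non-uniform or population outliers were left out. Levels are per channel after Aquantile scaling. A probe was detected when well above background for the same pool on both arrays, and the brightest detected probe stood for a gene. Between 71.5% and 74.3% of spots per channel were well above background. Names were updated through RefSeq (GRCr8). Gene counts leave out 17606 of 41012 probes, for which no gene name was found. Later steps used Python 3.11.15. The steps were tested on simulated arrays. For changed probes the passing bar covered only changes larger than the ratio of any member, so recovery of smaller changes was not required. The number of arrays limits the precision.

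Members and gene lists were chosen with earlier results of these data known. Named genes were all members, up to 3 genes per list and direction with the largest called ratios, the other actins and all detected cardiac markers. Des, Myh3, Krt14, Actn3, the regulators and hormone gene of heart muscle that were not detected, and the neighbouring genes were added after their values were seen.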

Additional observations from a re-analysis of the deposited data

How the results depend on the processing

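Every member except Tnnc2 kept the sign of its ratio, taken as the mean of the arrays used, under the 13 alternatives run for it. Leaving out saturated spots or changing the filter on dim probes could not alter any member. Averaging over probes could alter only Actc1. The array software's log ratios gave the members the same values as its processed signals. The difference of fast minus slow ratios kept its sign in all 4 subunits and moved by no more than the SD of the arrays. Taking a single array cannot move it beyond that SD, and centring on spike-ins cannot move it at all. The slow or cardiac-type median ranged from -1.33 to -1.11 with both arrays, and was -1.14 and -1.45 on single arrays. Adding the Tnnc1 probe, an alternative chosen after seeing the data, gave -1.23. The fast median of 0.46 became 0.43 with the array software's processed values or log ratios, median centring or the authors' deposited table, 0.24 centred on spike-ins, and 0.54 for troponins alone. On single arrays it was 0.44 and 0.48. Members higher in E16 numbered 3 and became 1 with median centring, 0 at 3-fold and 4 at 1.5-fold. They numbered 4 without the array with E19 in Cy5, where only 1 array had to pass. Members higher in E19 numbered 0, and 1 at 1.5-fold.

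Over all genes, 614 were higher in E19 and 555 in E16. The array software's signals, processed or as log ratios, raised this to 1014 in E19 and 889 in E16. The authors' deposited table gave 1197 and 998. It holds 1 merged ratio per sequence, so the rule of passing on both arrays could not be applied to it. A limit of 1.5-fold left 1412 and 1134, one of 3-fold 178 and 230. Median centring gave 368 in E19 and 439 in E16, and centring on spike-ins 390 and 809. Background correction without the offset gave 779 and 772, and no background subtraction 680 and 647. Fold limits change counts by construction, and the authors' merged ratio was held to a different rule. Beyond that, the cause was not tested. Of 156 list medians under alternatives, 42 shifted beyond the SD between arrays and 150 kept their sign. Of 130 ratios of the members and the Tnnc1 probe, 20 shifted beyond it. Leaving out 1 array cannot shift such a ratio beyond it. Leaving out saturated spots or changing the filter on dim probes left these ratios unchanged. Of the list medians, 6 changed sign. Centred on spike-ins, they were the cardiac (-0.12), smooth muscle (-0.04) and fast isoform (-0.03) medians. With median centring the other actins turned (0.02). Without the array with E19 in Cy3, the other actins (0.68) and the thin filament partners (0.01) turned.

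No paired analysis was possible because each stage is 1 RNA pool. With 1 pool per stage the values describe these pools, and the offset compresses dim probes such as Tnni3 (-1.35, and -1.59 without it).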
